A study of Mus musculus with 31 samples.

Results

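The D cyclins (Ccnd1, Ccnd2 and Ccnd3), the kinases they bind (Cdk4 and Cdk6) and 5 inhibitors of these and related kinases (Cdkn1a, Cdkn1b, Cdkn1c, Cdkn2a and Cdkn2c) were followed on Affymetrix whole-genome mouse expression arrays. The 10 genes were chosen by name, of 18193 genes named on the array, and all 26 probe sets annotated to them were taken, out of 45037 probe sets on the array. A further Ccnd3 probe set, 1437136_at, carries no gene in the annotation and was kept apart. The study assigned it to an intron of Ccnd3 and listed it among the probe sets altered in these samples, so its values in mice with 1 inactivated Crebbp allele are a description and not independent evidence.

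D cyclins carry growth factor signals to the cell cycle: they activate CDK4 and CDK6, which phosphorylate the retinoblastoma protein and its relatives and so release E2F factors and entry into S phase. The INK4 inhibitors, here Cdkn2a (p16, and ARF from another reading frame) and Cdkn2c (p18), bind CDK4 and CDK6 themselves. The CIP/KIP inhibitors Cdkn1a (p21), Cdkn1b (p27) and Cdkn1c (p57) act on several cyclin-CDK complexes. Cdkn1a is a classical target of p53, and p57 and p21 are known for their part in the quiescence of adult hematopoietic stem cells, while fetal liver stem cells divide actively.

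The comparisons come from 4 experiments with 23 samples on 31 arrays. Fetal liver hematopoietic stem cells (FL HSCs) were cells of the fetal liver at 14.5 days post coitum, sorted as Lin-, SCA1+, AA4.1+ and KIT++, with 15 embryos pooled in each sample. Crebbp+/- FL HSCs (2 samples) were compared with WT (2 samples), and Ep300+/- FL HSCs (2 samples) with their own WT (2 samples), all C57BL/6 with WT littermates as controls and 2 technical replicate arrays a sample. These mice carry 1 inactivated allele in every cell, of genes that encode related histone acetyltransferases. Cdkn1a-/- FL HSCs (4 samples, from a stock homozygous for the tm1Tyj null allele) were compared with WT (3 samples, B6129SF2). These are separate stocks of mixed B6/129Sv background and not littermates, so strain and genotype cannot be told apart there. Mouse embryonic fibroblasts (MEFs) were grown from single Crebbp+/- and WT embryos of the same litter, C57BL/6 and 14.5 days post coitum, in 4 litters. No WT sample served in more than 1 experiment. The values are log2 levels, normalized separately in each experiment, so levels of different experiments are given side by side as a description and were tested only within an experiment and a probe set.

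A probe set was tested when its highest sample reached an intensity of 100 (6.64 on the log2 scale), and called when the adjusted p of limma was under 0.05 and the fold over 1.5. All 9 FL HSC marker genes that had a probe set of their own (of 11 listed) reached the minimum in 14 of the 15 FL HSC samples and 8 of them in Crebbp+/- FL HSC sample 2, and 8 of 8 fibroblast markers did so in each MEF sample. On an array, 11199 to 11512 probe sets reached it in the Crebbp FL HSC experiment and 12042 to 12363 in the Ep300 experiment. In the Cdkn1a experiment 18947 to 19522 did, and in MEFs 14380 to 14684. In the same order the array medians were 2.65 to 2.70, 2.76 to 2.80, 4.58 to 4.69 and 3.55 to 3.61. Levels of a gene in different experiments, and its place above or below the minimum, carry this shift. In bulk samples, fewer cells of a type and less RNA per cell cannot be told apart.

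Among the inhibitors, only Cdkn1b was above the minimum in all 4 experiments. In WT samples its probe set 1434045_at averaged 9.46 ± 0.19 (SD, n = 2) in the Crebbp FL HSC experiment, 9.95 ± 0.05 (n = 2) in the Ep300 experiment, 12.70 ± 0.20 (n = 3) in the Cdkn1a experiment and 9.56 ± 0.30 (n = 4) in MEFs. Its other probe set, 1419497_at, was well above the minimum in FL HSCs (8.30, 9.50 and 10.78 in WT) and below it in all 8 MEF samples (3.85 to 4.65). The 2 Cdkn1b probe sets therefore gave unlike pictures of the same gene in MEFs.

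Cdkn1a, by 1424638_at, stood at 4.59 ± 0.90 (SD, n = 2) and 5.76 ± 0.12 (n = 2) in the WT samples of the Crebbp and Ep300 experiments, both below the minimum, at 8.23 ± 0.60 (n = 3) in the Cdkn1a experiment and at 11.90 ± 0.28 (n = 4) in MEFs. Cdkn1c was also below the minimum in the first 2 of these (3.78 and 3.41), near it in the Cdkn1a experiment (6.10 ± 0.96, n = 3) and above it in MEFs (12.02 ± 0.88, n = 4). Cdkn2c stood at 2.22 in both, at 5.57 ± 1.20 (n = 3) in the Cdkn1a experiment and at 8.73 ± 0.32 (n = 4) in MEFs. Cdkn2a was below the minimum everywhere, between 2.03 and 2.32 in the 15 FL HSC samples and between 4.22 and 5.05 in the 8 MEF samples, so its 2 products were not measurable here.

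The D cyclins and kinases were detected in each experiment by their brightest probe sets. In WT samples of the Crebbp FL HSC experiment these stood at 10.82 ± 0.28 for Ccnd1 (1448698_at), 11.10 ± 0.29 for Ccnd2 (1434745_at), 8.83 ± 0.23 for Ccnd3 (1415907_at), 11.84 ± 0.25 for Cdk4 (1422441_x_at) and 10.45 ± 0.08 for Cdk6 (1435338_at), each with n = 2. In MEFs they were 12.17 ± 0.31 for Ccnd1 (1417420_at), 13.64 ± 0.16 for Ccnd2, 11.00 ± 0.05 for Ccnd3, 12.83 ± 0.04 for Cdk4 and 9.71 ± 0.21 for Cdk6 (1455287_at), each with n = 4. The Ccnd3 intronic probe set was measured in FL HSCs, at 7.20, 7.48 and 8.53 in the WT samples of the 3 experiments, and lay at 2.65 to 2.71 in the 8 MEF samples, where the Ccnd3 mRNA probe set was at 10.95 to 11.10.

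**Figure D1:**
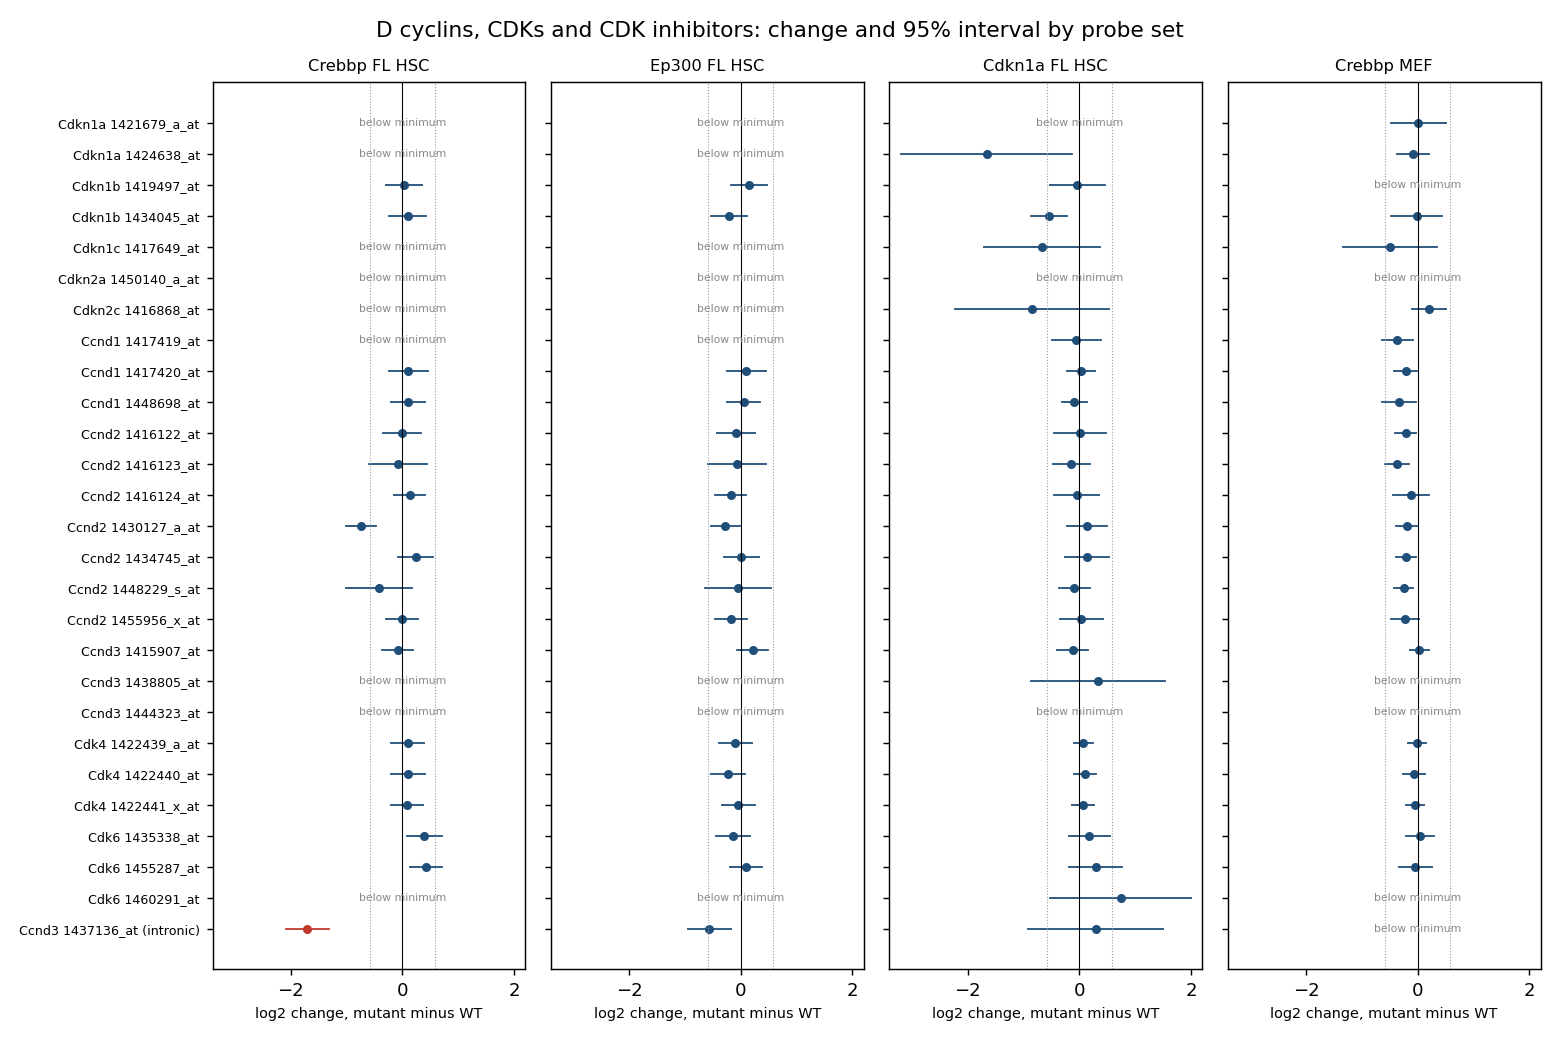
Log2 change (mutant minus WT) of each member probe set in the 4 experiments, with its 95% interval as a line; red marks a call, dotted lines mark a fold of 1.5, and probe sets whose samples all lay below the minimum are marked so. The Ccnd3 intronic probe set in Crebbp+/- FL HSCs is the red point, and in MEFs the Ccnd1 and Ccnd2 points lie between -0.12 and -0.37.

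Loss of Cdkn1a was the comparison in which other inhibitors could be asked about directly. No inhibitor passed the test in Cdkn1a-/- FL HSCs. Cdkn1a itself did not pass (limma, adjusted p = 0.648), so the test cannot show that the other inhibitors were unchanged. Of 24 member probe sets tested 0 were called, against 0.405% (85 of 20962) of all probe sets. At an unadjusted p under 0.05 with the same fold there was 1, Cdkn1a itself, against 4.05% of all. Changes in the 23 annotated probe sets tested had a median of 0.01, with 12 higher and 11 lower in the null samples, and 19 lay within 1.5-fold, where 87.4% of all tested probe sets did.

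Cdkn1a was measured first, as the targeted gene. Its probe set 1424638_at read 7.66, 8.17 and 8.86 in the WT samples and 6.55, 6.34, 8.07 and 5.30 in the libraries labelled Cdkn1a-/-. Null samples 1, 2 and 4 lay below every WT sample, and null sample 3 lay inside the WT range. The difference was -1.66 (SE 0.64, 95% interval -3.20 to -0.12), and limma gave an adjusted p = 0.648. Without null sample 3 it was -2.16 (adjusted p = 0.351).

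The second Cdkn1a probe set, 1421679_a_at, read 3.59, 2.44 and 3.85 in WT and 2.18, 2.25, 2.25 and 2.18 in the null samples. Each null sample, null sample 3 among them, lay below each WT sample, but all 7 were below the minimum and the probe set was not tested. Which part of the gene the null allele lacks, and where either probe set lies relative to it, is not given in the sources used here, so neither reading settles the labels.

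For Cdkn1b (p27), the groups stood apart with 1 of its 2 probe sets. With 1434045_at the WT samples read 12.84, 12.47 and 12.79 and the null samples 12.19, 11.94, 12.29 and 12.24. All 4 null samples lay below all 3 WT samples, by a mean difference of -0.54 (SE 0.14, 95% interval -0.86 to -0.21), a fold of 1.45 that missed both thresholds (adjusted p = 0.334). Over the fits that left out 1 sample the difference ranged from -0.65 to -0.46, and without null sample 3 it was -0.58. Groups that did not overlap were found for 2 of 24 member probe sets, the other being Cdk4 1422439_a_at, against 7.88% of all probe sets tested. The count is near that share, so nothing is read from the missing overlap.

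The second Cdkn1b probe set did not show the difference. With 1419497_at the WT samples read 10.92, 10.41 and 11.02 and the null samples 11.13, 10.73, 10.52 and 10.61. The groups overlapped fully, with a difference of -0.03 (SE 0.21, 95% interval -0.53 to 0.46).

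Cdkn1c (p57) read 7.13, 5.22 and 5.96 in WT and 5.84, 5.22, 5.44 and 5.26 in the null samples. Only WT sample 1 reached the minimum, and the groups overlapped (difference -0.66, SE 0.44, adjusted p = 0.720). Without WT sample 1 no sample reached the minimum and there was no test. Cdkn2c (p18) read 4.88, 4.88 and 6.96 in WT and 4.88, 5.19, 4.88 and 3.98 in the null samples. Its difference of -0.84 (SE 0.58, adjusted p = 0.720) rested on WT sample 3, the only sample above the minimum. Cdkn2a stayed between 2.03 and 2.04 in all 7 samples.

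WT sample 3 of this experiment stood apart from the other 6 samples in markers of other cells. Of the 6 erythroid markers, 4 reached the minimum in it and 0 in any other sample (summed level, as the log2 of the summed intensities, 13.58 against 4.75 to 5.49). For macrophages it was 6 of 7 markers against 0 (13.23 against 5.80 to 6.77), and for fetal hepatocytes 5 of 5 against 1 to 5 (16.68 against 8.69 to 11.84). Megakaryocyte markers (4 of 4 against 1 to 2, 12.53 against 8.96 to 9.85) and granulocyte markers (7 of 7 against 3 to 6, 17.07 against 14.97 to 15.85) were also highest in it. Its lymphoid markers lay within the range of the other samples (11.2 against 9.63 to 11.85). Leaving out WT sample 3 did not even out the fetal hepatocyte markers. They summed to 8.89 and 8.69 in WT samples 1 and 2, with 1 of 5 at the minimum in each. In the null samples they summed to 9.81 to 11.84, with 3 to 5 of 5 at the minimum. Whether this bears on the differences was not tested. Without WT sample 3 the Cdkn1b difference by 1434045_at was -0.49 (SE 0.15, adjusted p = 0.527). The Cdkn1a difference was then -1.35 (adjusted p = 0.946), and Cdkn2c was no longer tested.

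**Figure D2:**
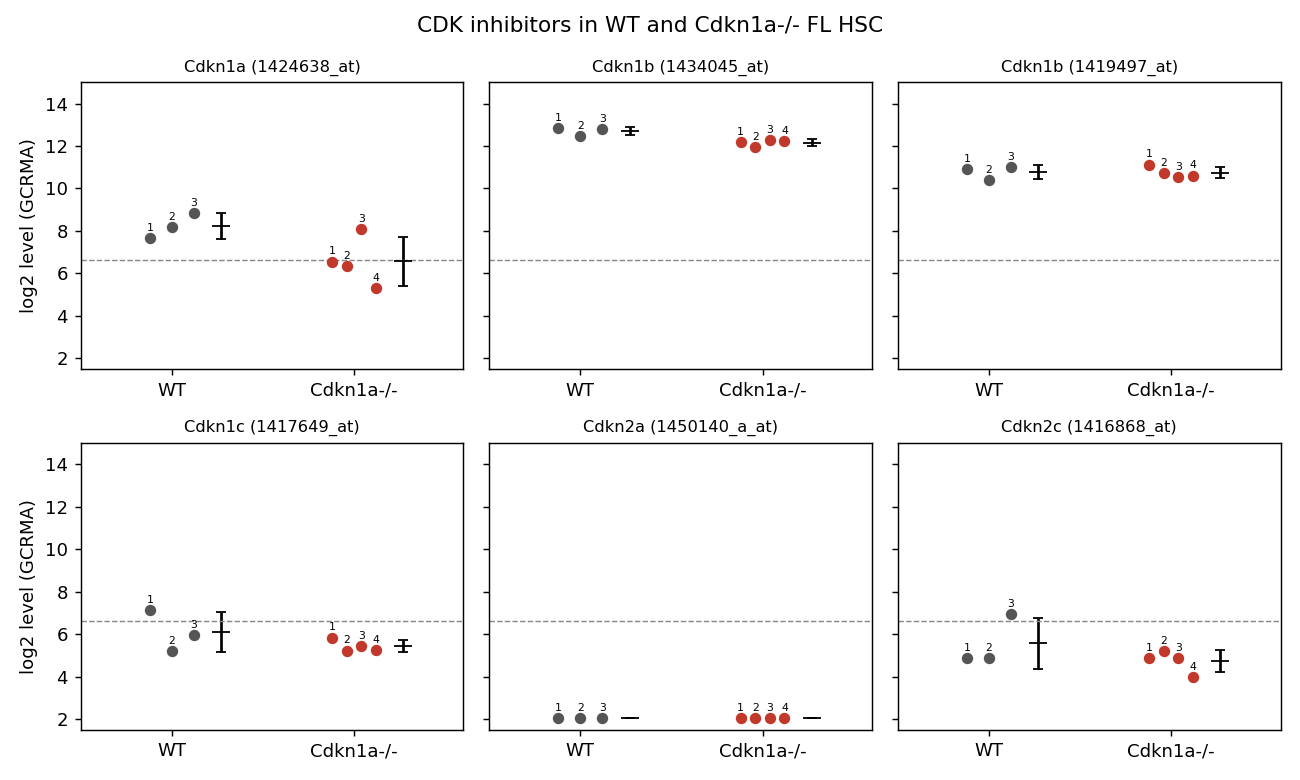
Log2 level of the CDK inhibitors in the 3 WT and 4 Cdkn1a-/- FL HSC samples (points, numbered by sample) with the mean and SD of each group; the dashed line is the minimum of 6.64. Cdkn1b by 1434045_at is the panel in which all null samples (11.94 to 12.29) lie below all WT samples (12.47 to 12.84).

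The cyclins and kinases moved little in Cdkn1a-/- FL HSCs. Ccnd1 by 1448698_at read 13.50, 13.48 and 13.39 in WT and 13.48, 13.46, 13.27 and 13.29 in the null samples, with a difference of -0.09 (95% interval -0.30 to 0.13). Ccnd2 by 1434745_at read 13.87, 13.59 and 13.35 in WT and 14.00, 13.68, 13.55 and 13.74 in the null samples, with a difference of 0.14 (95% interval -0.25 to 0.53). In both genes the groups overlapped, and the other Ccnd1 and Ccnd2 probe sets differed by between -0.14 and 0.14.

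Ccnd3 mRNA by 1415907_at differed by -0.11 (95% interval -0.39 to 0.16), by 1438805_at by 0.34 (SE 0.50), and the Ccnd3 intronic probe set by 0.29 (SE 0.51, 95% interval -0.92 to 1.5). The intronic probe set read 8.88, 9.03 and 7.68 in WT and 8.86, 9.39, 9.31 and 7.73 in the null samples, each group holding 1 low sample. The 3 Cdk4 probe sets differed by 0.07, 0.10 and 0.07. Those of Cdk6, a kinase expressed in blood progenitors, differed by 0.18, 0.29 and 0.75, the last of them a probe set near the minimum (SE 0.53). None had an adjusted p under 0.720. Without WT sample 3, the Ccnd3 differences were -0.00, -0.03 and, for the intronic probe set, -0.13, and those of Cdk6 were 0.10, 0.16 and 0.16. In all, 9 of 23 member probe sets changed sign without that sample, so no direction is read from the small differences of the cyclins and kinases.

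Genes around this step were taken from lists of other regulators and of later cell cycle genes. Of the 29 other G1 to S regulators tested in Cdkn1a-/- FL HSCs, 17 were higher and 12 lower, 0 were called and 0 passed at an unadjusted p under 0.05 with the fold, with a median of 0.03 against 0.06 over all probe sets. Among them were 2 further INK4 genes: Cdkn2d (p19) differed by -0.32 (SE 0.25, adjusted p = 0.721), and Cdkn2b (p15) lay at 2.13 in WT and 2.14 in the null samples, below the minimum. Of 21 S phase and mitosis genes, 15 were higher and 6 lower with 0 called and a median of 0.07. Of 10 other genes of the p53 list, 4 were higher and 6 lower, with 0 called.

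In Crebbp+/- FL HSCs the 17 annotated member probe sets tested gave 0 calls, and the Ccnd3 intronic probe set gave 1, so that 1 of 18 was called against 0.383% (51 of 13332) of all probe sets. Since that probe set was listed by the study from these samples, nothing is read from this count. At an unadjusted p under 0.05 with the fold there were 2, with Ccnd2 1430127_a_at added, against 10% of all. The study listed both from these samples, so nothing is read from this count either. The 17 had a median change of 0.10, against 0.05 over all probe sets, and 16 lay within 1.5-fold, where 88.9% of all did.

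The Ccnd3 intronic probe set read 7.99 and 7.52 on the technical replicate arrays of WT sample 1, and 7.26 and 6.01 on those of WT sample 2. It read 6.57 and 6.02 in Crebbp+/- sample 1, and 3.44 and 5.95 in Crebbp+/- sample 2. Averaged per sample, both mutant samples (6.29 and 4.70) lay below both WT samples (7.76 and 6.64), but single arrays of the groups overlapped.

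The change was -1.70 (SE 0.15, 95% interval -2.08 to -1.32) with an adjusted p = 0.0486. The technical replicates of Crebbp+/- sample 2 differed by 2.51 and those of WT sample 2 by 1.25, where the median difference between technical replicates was 0.19 and the 99th percentile 1.34. With the first technical replicates alone the change was -2.62 (adjusted p = 0.130), and with the second alone -0.78 (adjusted p = 0.406). Without pair 1 it was -1.94 (adjusted p = 0.0846) and without pair 2 it was -1.46 (adjusted p = 0.120), so the call was lost in each of these. It was also lost with no filter on the level (adjusted p = 0.195), with only the 4 samples of the experiment (adjusted p = 0.0906) and with no replicate block (adjusted p = 0.597). The Ccnd3 mRNA probe set read 8.66 and 9.0 in WT and 8.55 and 8.94 in Crebbp+/-, with overlapping groups and a change of -0.08 (95% interval -0.36 to 0.20).

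In Ep300+/- FL HSCs the same intronic probe set read 7.76 and 7.19 in WT and 7.18 and 6.65 in the mutant samples. Its difference was -0.58 in one pair and -0.55 in the other, with a mean of -0.56 (SE 0.15, adjusted p = 1). Technical replicates of these samples differed by 0.10 to 1.35, so the arrays of the groups overlapped. The Ccnd3 mRNA probe set had the opposite sign, with a change of 0.21 (95% interval -0.07 to 0.49), 8.57 and 8.51 in WT and 8.70 and 8.81 in the mutant. Set against each other, the effects in Crebbp+/- and Ep300+/- differed on the intronic probe set by -1.14 (SE 0.21, adjusted p = 0.172).

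**Figure D3:**
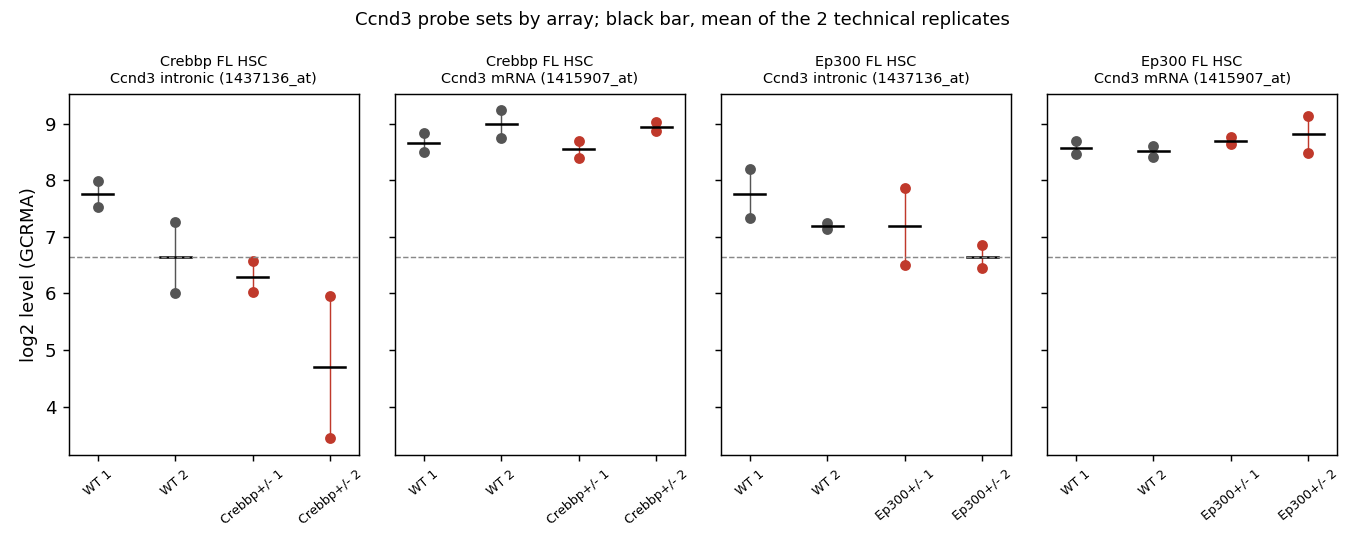
Log2 level of the Ccnd3 intronic and mRNA probe sets on each technical replicate array (points joined by a line) of the Crebbp and Ep300 FL HSC samples, with the sample mean as a black bar; the dashed line is the minimum of 6.64. The intronic probe set of Crebbp+/- sample 2 spans 3.44 to 5.95, a wider gap than any of the mRNA probe set.

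The probe sets of Ccnd2 did not share a direction. In Crebbp+/- FL HSCs, probe set 1430127_a_at, which the study also listed as altered, read 9.0 and 9.29 in WT and 8.26 and 8.56 in the mutant samples. The change was -0.74 in pair 1 and -0.73 in pair 2, with a mean of -0.74 (SE 0.10, 95% interval -1.0 to -0.47) and an adjusted p = 0.0544. With the first or second technical replicates alone the change was -0.41 or -1.07. The study listed 1430127_a_at from these same samples, so these values are a description and not independent evidence.

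The brightest Ccnd2 probe set, 1434745_at, had the other sign. It read 11.31 and 10.90 in WT and 11.51 and 11.17 in Crebbp+/-, with overlapping groups and a change of 0.24 (SE 0.12, adjusted p = 0.308). The other 5 Ccnd2 probe sets changed by between -0.42 and 0.13, with 95% intervals that held 0. In Ep300+/- FL HSCs 1430127_a_at differed by -0.28 (SE 0.10, adjusted p = 1) and 1434745_at by 0.01.

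Cdk6 was higher in both Crebbp+/- samples with both probe sets measured. By 1435338_at it read 10.51 and 10.39 in WT and 10.76 and 10.93 in the mutant, and the change was 0.40 (SE 0.12, 95% interval 0.09 to 0.70, adjusted p = 0.144). By 1455287_at it read 7.78 and 6.98 in WT and 8.10 and 7.51 in the mutant, higher within each pair although the groups overlapped, with a change of 0.42 (SE 0.11, adjusted p = 0.119). In Ep300+/- FL HSCs the same probe sets differed by -0.14 and 0.10. The difference between the 2 effects was 0.53 (SE 0.17, adjusted p = 0.271) and 0.33 (SE 0.16, adjusted p = 0.401), so neither passed.

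The remaining members changed little in Crebbp+/- FL HSCs. Ccnd1 differed by 0.11 with both probe sets tested, the 3 Cdk4 probe sets by 0.09 to 0.10, and the 2 Cdkn1b probe sets by 0.04 and 0.09, with SE between 0.11 and 0.13. Cdkn1a read 5.23 and 3.95 in WT and 4.37 and 4.09 in the mutant, all below the minimum, so a change of it could not be tested at this level, and the same held for Cdkn1c, Cdkn2a and Cdkn2c. Of the 4 probe sets of Crebbp itself, the 2 brightest differed by 0.07 and 0.01 between these genotypes with overlapping groups. A dimmer probe set of Crebbp differed by -0.43 (SE 0.16, adjusted p = 0.196) and the dimmest, below the minimum, by -0.35, both lower in 2 of 2 pairs. Fetal hepatocyte markers varied here, with a summed level of 5.53 and 9.78 in the WT samples and 8.25 and 8.84 in the mutant. The 4 megakaryocyte markers summed to 7.13 and 7.11 in WT and 6.01 and 6.40 in the mutant, with 1 of 4 at the minimum in each WT sample and 0 in each mutant sample. Of the 9 FL HSC markers 4 were higher and 5 lower, with 0 called. At an unadjusted p under 0.05 with the fold 2 of the 9 passed, both lower, against 10% of all probe sets. They were Meis1 at -1.26 (SE 0.14, adjusted p = 0.0508) and Procr at -0.81 (SE 0.16, adjusted p = 0.0826). The study had listed Meis1 as altered in these same samples, so its value is not independent evidence. By the study's account, the altered Meis1 mRNA probe set could also pick up an intron or another 3' exon. The part of the marker genes in the differences was not tested.

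Of 27 other G1 to S regulators tested in Crebbp+/- FL HSCs, 19 were higher and 8 lower with 0 called, and the median was 0.06 against 0.05 for all probe sets. E2f7, a repressor of the E2F family, was the 1 that passed at an unadjusted p under 0.05 with the fold, at 0.93 (SE 0.21, adjusted p = 0.0906). That was 1 of 27, against 10% of all probe sets, so nothing is read from it. The p107 gene Rbl1 differed by 0.42 (adjusted p = 0.130). Of 20 S phase and mitosis genes, 14 were higher and 6 lower, with 0 called. Of 7 genes of the p53 list 5 were higher and 2 lower, with 0 called. At an unadjusted p under 0.05 with the fold 1 of these 7 passed, a lower one, against 10% of all probe sets.

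In Ep300+/- FL HSCs 0 of 18 member probe sets were called, against 0% of all 13332, and at an unadjusted p under 0.05 with the fold 0 of 18 passed, against 0.780%. All 17 annotated probe sets lay within 1.5-fold (98.9% of all did), 6 higher and 11 lower. Cdkn1b differed by -0.21 (95% interval -0.54 to 0.12) with 1434045_at and by 0.15 (95% interval -0.17 to 0.47) with 1419497_at, opposite signs with WT samples at 9.91 and 9.98 and at 9.46 and 9.55. Cdk4 differed by -0.10, -0.23 and -0.04. Cdkn1a, below the minimum, read 5.84 and 5.68 in WT and 5.50 and 4.68 in Ep300+/-. The Ep300 probe set itself differed by -0.10 (95% interval -0.36 to 0.16). Of 27 other G1 to S regulators 16 were higher and 11 lower, of 20 S phase and mitosis genes 7 and 13, and of 7 genes of the p53 list 3 and 4, with 0 called in each list. No effect on a member differed by the test between Crebbp+/- and Ep300+/-: 0 of 18 were called, against 0% of all, and at an unadjusted p under 0.05 with the fold 1 passed, the intronic probe set, against 9.98%.

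In Crebbp+/- MEFs, Ccnd1 and Ccnd2 were lower with all 10 of their probe sets, by small amounts that did not pass the test. Of 21 member probe sets 0 were called, against 0% of all 15502, and at an unadjusted p under 0.05 with the fold 0 passed, against 0.961%. The 21 had a median change of -0.12, against 0.02 over all, with 4 higher and 17 lower, and all 21 lay within 1.5-fold. The absolute change had a median of 0.20, against 0.09 over all. Those numbers rest on few genes, since 10 of the 21 probe sets belong to Ccnd1 and Ccnd2 and share their transcripts.

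Ccnd1 by 1417419_at read 12.05, 11.73, 11.47 and 11.96 in the WT samples of litters 1 to 4 and 11.88, 11.21, 10.83 and 11.82 in the Crebbp+/- samples. Each mutant sample was lower than its littermate although the groups overlapped, and the mean change was -0.37 (SE 0.11, 95% interval -0.65 to -0.09, adjusted p = 0.660). The other Ccnd1 probe sets differed by -0.34 (SE 0.12) and -0.22 (SE 0.08), also lower in 4 of 4 litters.

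Ccnd2 by 1416123_at read 12.48, 12.36, 12.33 and 12.76 in WT and 12.28, 11.95, 11.77 and 12.46 in Crebbp+/-. It was lower in 4 of 4 litters, with a change of -0.37 (SE 0.08, 95% interval -0.58 to -0.16), a fold of 1.29 (adjusted p = 0.564). By the brightest probe set, 1434745_at, it read 13.69, 13.52, 13.51 and 13.85 in WT and 13.39, 13.34, 13.42 and 13.60 in the mutant, with a change of -0.20 (SE 0.07, adjusted p = 0.706). The other 5 probe sets differed by -0.12 to -0.25, and 1430127_a_at, listed by the study for FL HSCs, by -0.20. In all, 5 of 7 Ccnd2 probe sets and 3 of 3 of Ccnd1 were lower in 4 of 4 litters. With 1 of Cdk4 these made 9 of 21 member probe sets, against 6.25% of all probe sets tested. The 9 belong to Ccnd1, Ccnd2 and Cdk4 only, and probe sets of a gene share transcripts and litters. They are not independent, so nothing is read from this count.

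**Figure D4:**
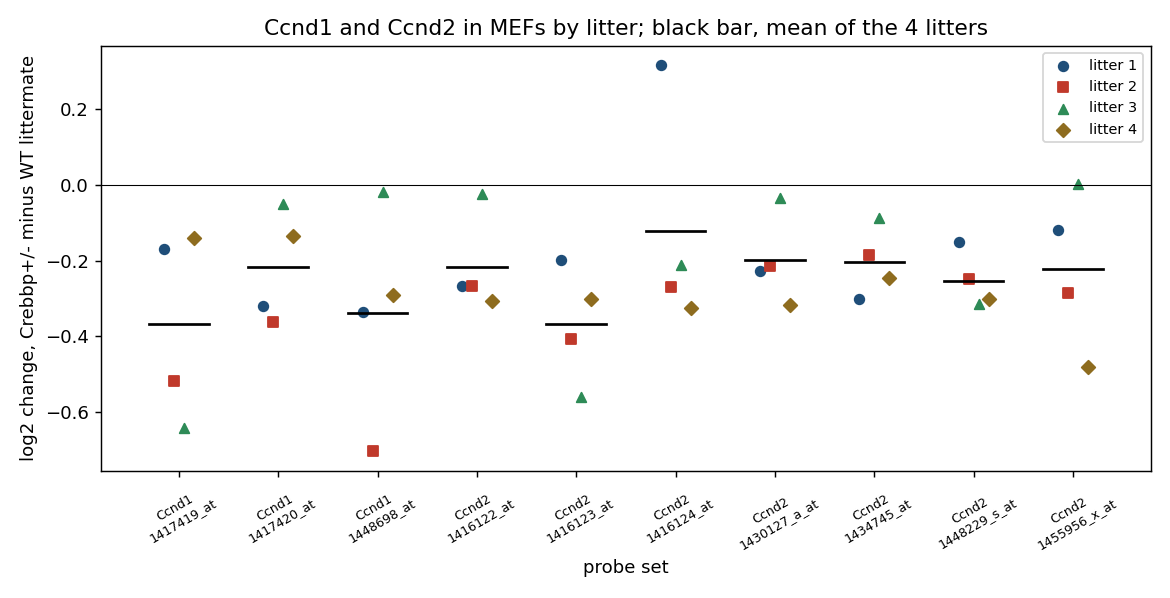
Log2 change, Crebbp+/- minus WT littermate, of each Ccnd1 and Ccnd2 probe set in the 4 MEF litters (points) with the mean as a black bar. The means lie between -0.12 and -0.37, and the 2 points above 0 are Ccnd2 1416124_at in litter 1 (0.32) and Ccnd2 1455956_x_at in litter 3 (0.00).

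Other genes moved alongside in MEFs. Of 20 S phase and mitosis genes 19 were higher in Crebbp+/- MEFs, with a median of 0.22 against 0.02 over all and 0 called, such as the helicase subunit Mcm3 at 0.29 (SE 0.10, adjusted p = 0.706) and the topoisomerase Top2a at 0.32 (SE 0.14, adjusted p = 0.753). Of 27 other G1 to S regulators 23 were higher and 4 lower with 0 called, and Ccne2, the cyclin E that follows the D cyclins, had the lowest adjusted p of them at 0.58 (SE 0.11, adjusted p = 0.505). All 8 fibroblast markers were lower, with a median of -0.26, among them the matrix genes Dcn at -1.02 (SE 0.19, adjusted p = 0.505) and Postn at -0.49 (SE 0.12, adjusted p = 0.609), and their summed level was 17.15 to 17.36 in WT and 17.01 to 17.25 in the mutant. The 7 macrophage markers summed to 11.27 to 11.58 in WT and 10.66 to 11.05 in the mutant, with 2 to 4 of 7 at the minimum in WT and 3 to 4 in the mutant. Of the 4 of them tested 2 were higher and 2 lower with 0 called, and the brightest, the adhesion gene Vcam1, differed by -0.52 (SE 0.09, adjusted p = 0.505). Of 13 genes of the p53 list 6 were higher and 7 lower, with 0 called. The part of these shifts in the Ccnd1 and Ccnd2 values was not tested.

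The inhibitors varied between MEF litters without a shared direction. Cdkn1c read 13.14, 11.40, 12.30 and 11.22 in WT and 11.73, 11.29, 11.26 and 11.79 in Crebbp+/-. The differences were -1.40, -0.11, -1.03 and 0.56, and the mean change of -0.50 (SE 0.34, 95% interval -1.34 to 0.35) was smaller than the spread between litters. Cdkn2c differed by 0.20 (95% interval -0.10 to 0.50), higher in 3 of 4 litters. Cdkn1a, well above the minimum in these cells, differed by -0.08 (95% interval -0.37 to 0.20) with 1424638_at, and Cdkn1b by -0.02 (95% interval -0.48 to 0.44).

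Ccnd3 mRNA had the smallest change of the 3 D cyclins in MEFs, at 11.03, 10.95, 10.96 and 11.05 in WT and 11.00, 11.10, 11.00 and 11.01 in Crebbp+/-, a change of 0.03 (95% interval -0.14 to 0.20). The 3 Cdk4 probe sets differed by -0.01 to -0.06 and the 2 Cdk6 probe sets by 0.04 and -0.04. In these cells the inactivated gene did separate the genotypes, with Crebbp lower in 4 of 4 litters by -0.79 (SE 0.07, adjusted p = 0.417) with its brightest probe set.

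The Crebbp effect was compared between FL HSCs and MEFs in a fit of 16 samples. Of 23 member probe sets 1 was called, against 1.79% of all 18586, and at an unadjusted p under 0.05 with the fold 2 passed, against 8.85%. The call was the Ccnd3 intronic probe set, at -1.70 (SE 0.15, adjusted p = 0.00567), which lay near 2.67 in all MEF samples, so this difference repeats the FL HSC change for which the study listed the probe set, and nothing is read from the count. The fit pooled the spread of FL HSCs and MEFs, and in MEFs this probe set hardly varied. Nothing is read from its adjusted p either. The other that passed was Ccnd1 1417419_at at 0.88 (SE 0.31, adjusted p = 0.194), which was below the minimum in the Crebbp FL HSC samples. For the Ccnd2 probe sets the difference was -0.54 (SE 0.12, adjusted p = 0.0754) with 1430127_a_at and 0.44 (SE 0.13, adjusted p = 0.144) with 1434745_at, which have opposite signs and did not pass.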

How the data were processed

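The log2 values were deposited by the authors, who made them with GCRMA (background correction, quantile normalization and 1 value a probe set), separately in each of 4 experiments; the version is not given in the sources used here. FL HSC RNA (12 ng a sample) was amplified before labelling. The labels name the same amplification for MEFs, and the study's methods say that MEF RNA was not amplified. Gene names came from the platform annotation: of 45101 probe sets 34958 had 1 gene, 932 several and 9211 none, and 64 controls were left out.

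Log2 values of technical replicate arrays were averaged to 1 value a sample, and limma 3.58.1 in R 4.3.3 was fitted to all probe sets whose highest sample reached log2(100). Crebbp and Ep300 FL HSCs shared a fit with a block per same-numbered WT and mutant sample (2 residual degrees of freedom), Cdkn1a was unpaired, and MEFs had a block per litter. In MEFs the numbers pair the samples by litter (deviations from the group means correlated at 0.19 to 0.46). For FL HSCs the study's methods name paired tests without saying which samples were pairs, so the block on same numbers is an assumption there (correlations of 0.70 and 0.40). Adjusted p-values are Benjamini-Hochberg over all tested probe sets. The fit was tested on simulated data. Nothing says that the FL HSC pools came from separate sorts, so p-values measure only the spread among these samples. In Crebbp and Ep300 FL HSCs it is the spread of the differences between same-numbered samples. Both experiments share that estimate, so a probe set has the same SE in both. In MEFs it is the spread of the differences within litters. The number of arrays limits the precision.

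Named are all members, the inactivated genes, and list genes with the smallest p or a known role. Members and lists were chosen with earlier results of these data known. Alternatives were other filters, scaling, variance models, arrays and blocks, samples left out, and the methods' t-test.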

Additional observations from a re-analysis of the deposited data

Results flagged for a closer look

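In groups of 4 samples, 1 sample stood far from the other 3 for 2 of 66 groups of a member probe set, where chance flags about 1 in 20 groups. Cdk6 1435338_at read 9.77 in MEF WT sample 4 and 9.40 to 9.43 in the other WT samples. Ccnd3 1415907_at read 11.10 in MEF Crebbp+/- sample 2 and 11.00 to 11.01 in the other mutant samples, with the WT samples at 10.95 to 11.05. The Crebbp effect on the Ccnd3 intronic probe set differed between FL HSCs and MEFs by -1.70. The MEF samples lay at 2.65 to 2.71, so this value is the FL HSC change for which the study listed the probe set and no separate evidence.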

How the results depend on the processing

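The numbers of member probe sets called were small and moved with the processing. In Crebbp+/- FL HSCs the count of 1 became 0 with no filter on the level, with only the 4 samples of the experiment, with only the first or only the second technical replicates, with no replicate block and with the methods' t-test after adjustment, and it was 0 to 0 over the fits without 1 pair. It became 2 with a filter on the mean level, with arrays centred on their median, with a spread that follows the level and with an unadjusted p. For the difference between FL HSCs and MEFs the count of 1 became 0 with a filter on the mean level, with either set of technical replicates and with no replicate block, 2 with an unadjusted p, and 1 to 2 without 1 pair or litter. The counts of 0 in Cdkn1a-/- FL HSCs and between the Crebbp and Ep300 effects became 1 with an unadjusted p.

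Of the 27 member changes and differences of effects followed (unadjusted p under 0.05, the tested inhibitors in Cdkn1a-/- FL HSCs, and the intronic probe set), 2 changed sign, in 6 of 307 alternatives in all. Cdkn1b 1419497_at in Cdkn1a-/- FL HSCs, at -0.03, was 0.0143 with a replicate block on numbers 1 to 3 and ranged from -0.22 to 0.0842 over the fits without 1 sample. Between Crebbp+/- and Ep300+/-, the difference of effects on Ccnd2 1430127_a_at, at -0.46, was 0.0215 with only the first technical replicates. In Cdkn1a-/- FL HSCs the numbers 1 to 3 are only names (correlations of 0.25, 0.29 and -0.05), and that block lowered the count over all probe sets from 85 to 6. Over all probe sets the count of 51 in Crebbp+/- FL HSCs ranged from 0 to 1333 over these alternatives, and that of 85 in Cdkn1a-/- from 6 to 848. Without WT samples 1 to 3 in turn the latter was 52, 87 and 83, and without null samples 1 to 4 in turn 43, 38, 51 and 38. The cause was not tested.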
